A study of Mus musculus with 16 samples.

Results

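TRAV17, TRAV18, TRAV19, TRAV20 and TRAV21/DV12 are V segments of the TCRα locus that lie near its J segments. Their use was measured in TCRα transcripts of CD8 T cells with and without the T-cell lineage protein Themis. A CDR3 nucleotide sequence of a library was taken as a member when the first V hit listed for it was one of these segments. The rule took 2386 of the 78671 sequences, and 22956 of the 815759 reads, of the 8 libraries made from all CD8 T cells. TRAV19 gave 1145 of these sequences, TRAV21/DV12 gave 645, TRAV17 gave 541, TRAV20 gave 40 and TRAV18 gave 15. No member sequence listed a second V segment, whereas 77.1% of the 76285 other sequences did.

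The libraries form 4 groups of 2: TCRαβ+ CD8 T cells of the lymph nodes (LN) and single positive (SP) CD8 thymocytes, each from wild-type (Themis+/+) and from knockout (Themis-/-) animals. All mice were on the C57BL/6 background and carried the Foxp3-GFP reporter, controls included. The Themis knockout is in the germline, so every cell of a Themis-/- mouse carries it. The labels do not give the age of the mice. The series design speaks of individual mice, whereas by the methods LN cells from more than 1 mouse were combined ahead of the sort. TCRα tables do not measure Themis transcripts, so the genotypes rest on the labels, and p-values measure only the spread between these libraries.

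A TCRα chain is made in the thymus by joining 1 V segment to 1 J segment. The first joins on an allele tend to use V segments close to the J cluster and J segments at its V side. Later rounds replace them with V segments from farther upstream and J segments from farther downstream, until the cell is positively selected or dies. Bases can be trimmed from either end or added between them, and the junction forms CDR3, the loop that contacts the peptide held by MHC.

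The members stand side by side on the plus strand of chromosome 14 in GENCODE M21 (GRCm38). The deposited tables hold no coordinates, so these are the annotation's. TRAV17 is at chr14:53806639-53807115, TRAV18 at chr14:53831105-53831827, TRAV19 at chr14:53845234-53845827, TRAV20 at chr14:53863110-53863661 and TRAV21/DV12 at chr14:53875984-53876752. All are annotated as V gene segments except TRAV20, which is annotated as a V pseudogene. TRAV17 ends 347.9 kb before the start of TRAJ61 at chr14:54155005-54155076, and TRAV21/DV12 ends 278.3 kb before it. They are the last TRAV segments with more than a few reads, but not the last V segments, since 8 more lie between TRAV21/DV12 and TRAJ61. Of these, TRDV1, TRDV2-1 and TRDV2-2 each had over 100 sequences in the 8 libraries, and TRAV23 had 4 reads in 1 library. TRAV16, an upstream segment whose family is used below for comparison, ends 411.3 kb before TRAJ61, and TRAV1, the farthest, ends 1726.1 kb before it.

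The germline 3' ends of the members show what each brings to CDR3. They are printed from the codon of the conserved second cysteine to the last base of the V segment, from the GENCODE M21 transcripts.
TRAV17: tgtgcactggaggg
TRAV18: tgtacaggaa
TRAV19: tgcgcagcaggtg
TRAV20: tgtgcaccaggca
TRAV21/DV12: tgtatcctgagagtag
The ends ran from 10 bases in TRAV18 to 16 in TRAV21/DV12. The first 8 bases opened 95.9% of the TRAV17, 94.7% of the TRAV19 and 92.6% of the TRAV21/DV12 sequences. TRAV17 sequences kept a mean of 12.17 of their 14 germline bases, TRAV19 sequences 11.13 of 13 and TRAV21/DV12 sequences 13.03 of 16. The whole germline end was kept in 47.3% of TRAV17, 38.2% of TRAV19 and 31.2% of TRAV21/DV12 sequences.

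The CDR3s below are, for each segment, the one found in the most libraries, followed by the one with the highest share of a library's reads where that is another. Lower case covers the V alignment and any bases between the alignments, and capitals mark what was aligned to the J segment alone. The V alignment may run past the germline V end or hold a mismatch, and the J alignment may reach back into it. All of these apply to the TRAV19-TRAJ56 sequence.
TRAV17-TRAJ45: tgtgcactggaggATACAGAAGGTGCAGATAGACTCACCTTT
TRAV17-TRAJ58: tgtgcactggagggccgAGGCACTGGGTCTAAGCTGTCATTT
TRAV18-TRAJ57: tgtacaggaGGGTCTGCGAAGCTCATCTTT
TRAV18-TRAJ48: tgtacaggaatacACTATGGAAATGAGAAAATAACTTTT
TRAV19-TRAJ56: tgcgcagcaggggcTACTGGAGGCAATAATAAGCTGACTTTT
TRAV19-TRAJ37: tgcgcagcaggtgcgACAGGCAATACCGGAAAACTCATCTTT
TRAV20-TRAJ9: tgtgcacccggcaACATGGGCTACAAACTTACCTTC
TRAV21/DV12-TRAJ50: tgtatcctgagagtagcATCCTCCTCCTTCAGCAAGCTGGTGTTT
TRAV21/DV12-TRAJ57: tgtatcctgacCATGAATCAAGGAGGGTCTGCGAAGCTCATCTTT
The TRAV19-TRAJ56 sequence was the most widely shared member CDR3, found in 5 libraries with 12 and 15 reads in Themis+/+ thymus, 44 and 12 in Themis+/+ LN and 28 in LN Themis-/- library 1. The TRAV17-TRAJ45 sequence was found in 4 libraries with 40 reads in all. The TRAV19-TRAJ37 sequence had 94 of its 95 reads in LN Themis-/- library 1, where it was 0.141% of the reads. The TRAV21/DV12-TRAJ57 sequence had 121 reads in LN Themis-/- library 2 alone, which was 0.150% of that library. TRAV20 had no sequence in more than 1 library, and the one printed had 51 reads in LN Themis-/- library 2.

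Together the 5 segments took 2.95 and 4.56% of the reads in Themis+/+ thymus, 1.86 and 2.19% in Themis-/- thymus, 3.86 and 3.04% in Themis+/+ LN and 1.51 and 2.39% in Themis-/- LN. All 4 Themis-/- libraries lay below all 4 Themis+/+ libraries. The group means were 3.75% ± 1.13 (SD, n = 2) against 2.02% ± 0.228 in the thymus and 3.45% ± 0.585 against 1.95% ± 0.622 in LN. The mean difference over both tissues was -1.61 percentage points, with p = 0.0556 in a two-sided exact permutation test within tissues. That is the smallest p that its 36 arrangements allow, so the design cannot reach 0.05. Between tissues the combined share overlapped, with a difference of -0.19 points for LN minus thymus (exact permutation p = 0.667). By distinct sequences the combined shares were 2.86 and 4.46%, 1.96 and 2.16%, 4.32 and 3.65%, and 2.07 and 2.57% in the same order, and the Themis-/- libraries were again the lower.

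The J partners of the other V segments moved with this result. TRAJ48 to TRAJ61, the J segments nearest to the V segments, were joined to 12.7 and 19.9% of the sequences of all other V segments in Themis+/+ thymus, 9.71 and 9.96% in Themis-/- thymus, 16.8 and 12.9% in Themis+/+ LN and 11.6 and 11.9% in Themis-/- LN. Here too every Themis-/- library lay below every Themis+/+ library. Thymus Themis+/+ library 2 and LN Themis+/+ library 1 stood above the others on both measures. Leaving them out could therefore only narrow the difference in combined read share, which was -1.01 points without these 2 libraries. That left 1 Themis+/+ library in each tissue. The part of the J partners in the lower share of the members was not tested.

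**Figure D1:**
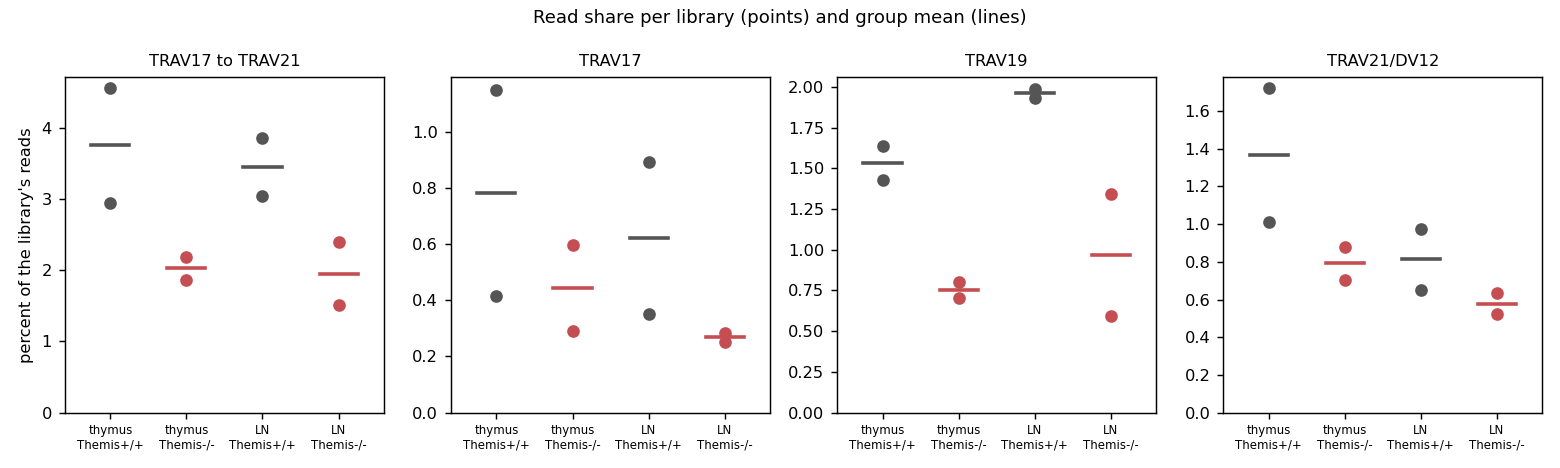
Share of a library's reads (percent, linear axis from 0) for the 5 segments together and for TRAV17, TRAV19 and TRAV21/DV12. Points are libraries and lines are means of 2 libraries per group, with Themis+/+ in grey and Themis-/- in red. Every Themis-/- point lies below every Themis+/+ point for the 5 segments together and for TRAV19, but not for TRAV17 or TRAV21/DV12.

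TRAV19 was the most used member. It took 1.43 and 1.64% of the reads in Themis+/+ thymus, 0.803 and 0.703% in Themis-/- thymus, 1.93 and 1.99% in Themis+/+ LN and 0.592 and 1.34% in Themis-/- LN. Each Themis-/- library was thus below each Themis+/+ library, as was the case for 7 of the 114 V segments tested (6.14%), while the reverse held for 5 of them (4.39%). In edgeR's quasi-likelihood test over the 114 segments the log2 fold change for Themis-/- against Themis+/+ was -0.93 ± 0.425 (SE) in the thymus (adjusted p = 0.553) and -1.05 ± 0.426 in LN (adjusted p = 0.162). Neither passed the threshold of 0.05. When distinct CDR3 sequences were counted in place of reads, the same test called TRAV19 lower in both tissues, with log2 fold changes of -1.21 in the thymus (adjusted p = 0.00199, edgeR) and -0.90 in LN (adjusted p = 0.0227, edgeR). The background of that count was 3 of 108 segments (2.78%) in the thymus and 9 of 108 (8.33%) in LN. By share of distinct sequences the genotypes overlapped across tissues, since thymus Themis+/+ library 1 had 1.42% and LN Themis-/- library 2 had 1.48%. Without LN Themis-/- library 2, which leaves 1 library in that group, the log2 fold change by reads in LN was -1.54. The adjusted p ranged from 0.121 to 0.994 in the thymus over the alternatives tried by reads.

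TRAV21/DV12 can also serve as a TCRδ V segment, which the DV12 in its name records. It took 1.01 and 1.72% of the reads in Themis+/+ thymus, 0.705 and 0.879% in Themis-/- thymus, 0.976 and 0.649% in Themis+/+ LN and 0.633 and 0.524% in Themis-/- LN. Within each tissue both Themis-/- libraries were below both Themis+/+ libraries, in LN only by 0.633 against 0.649%. The share of all V segments split in this way was not counted, and 2 libraries against 2 cannot give an exact permutation p below 0.333. Across tissues, LN Themis+/+ library 2 was below both libraries of Themis-/- thymus. The log2 fold change for Themis-/- against Themis+/+ was -0.71 ± 0.477 in the thymus (adjusted p = 0.794) and -0.50 ± 0.478 in LN (adjusted p = 0.622, edgeR).

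TRAV17 spread widely between libraries of 1 group. It took 0.416 and 1.15% of the reads in Themis+/+ thymus, 0.291 and 0.596% in Themis-/- thymus, 0.893 and 0.350% in Themis+/+ LN and 0.285 and 0.252% in Themis-/- LN. The thymus groups overlapped and the LN groups did not. A split of 2 libraries against 2 cannot have an exact permutation p below 0.333, and the share of all V segments so split was not counted. The log2 fold changes were -0.76 ± 0.595 in the thymus (adjusted p = 0.838) and -1.20 ± 0.603 in LN (adjusted p = 0.274, edgeR). Without thymus Themis+/+ library 2 the first changed sign to 0.16.

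TRAV18 and TRAV20 were rare. TRAV18 had 32 and 14 reads in Themis+/+ thymus, 21 and 0 in Themis-/- thymus, 17 and 0 in Themis+/+ LN, and 0 and 93 in Themis-/- LN. TRAV20 had 90 and 37 reads, 72 and 8, 62 and 24, and 0 and 124 in the same order. LN Themis-/- library 2 held the most reads of both. A count of 0 allows a share of up to 0.00259% in thymus Themis-/- library 2, 0.00522% in LN Themis+/+ library 2 and 0.0045% in LN Themis-/- library 1, by counting error only. At 15 and 40 sequences in all, no difference between groups was detectable at this depth.

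All 5 members passed the low-count filter of 10 reads in 2 libraries, and edgeR called 0 of them in each of the 5 comparisons. Among the 114 segments it called 0 (0%) for genotype in the thymus, 2 (1.75%) for genotype in LN, 0 (0%) for tissue in Themis+/+, 3 (2.63%) for tissue in Themis-/- and 1 (0.877%) for the difference between the genotype effects of LN and thymus. At an unadjusted p under 0.05 the test gave 8, 20, 0, 18 and 6 of the 114 segments in the same order. DESeq2 called 0, 7, 0, 4 and 1, again with no member. The 2 edgeR calls for genotype in LN were TRDV2-1 (log2 fold change -7.151, adjusted p = 1.94e-05) and TRDV2-2 (-4.793, adjusted p = 0.0344). TRDV2-1 was also called lower for tissue in Themis-/- and for the difference between genotype effects. The TRDV segments together took 0.653 and 1.86% of the reads in Themis+/+ thymus and 0.549 and 0.549% in Themis-/- thymus. In LN they took 1.25 and 1.33% in Themis+/+ and 0.193 and 1.04% in Themis-/-. In the thymus the median log2 fold change of the members for Themis-/- against Themis+/+ was -0.81, beside 0.08 over the 114 segments. All 5 members were lower there, and the median was the value of the rare TRAV20 (-0.808 ± 1.479, SE). In LN the median was -0.50, beside -0.09. Only 3 of the 5 members were lower in LN, while TRAV18 (2.963 ± 2.152) and TRAV20 (0.716 ± 1.481) were higher. The 2 genotype comparisons share no libraries, but they share 1 fit and its estimate of the spread. The sample titles do not say whether thymus and LN came from the same mice.

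The J partners set the members apart most. TRAJ48 to TRAJ61 joined 1548 of the 2386 member sequences (64.9%), TRAJ37 to TRAJ47 joined 22.3%, TRAJ30 to TRAJ35 joined 8.38%, TRAJ21 to TRAJ28 joined 2.72%, TRAJ11 to TRAJ18 joined 0.712% and TRAJ2 to TRAJ9 joined 0.964%. For all other V segments the shares of these blocks were 13.2, 14.8, 20.3, 23.9, 18 and 9.82%. The numbers fall along the locus from TRAJ61 to TRAJ1 without exception, over all 59 steps between the 60 annotated TRAJ segments. Member sequences were thus concentrated at the V side of the J cluster, and few had a partner in the blocks nearest to the constant region.

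By library, TRAJ48 to TRAJ61 joined 65.8 and 65.4% of the member sequences in Themis+/+ thymus, 59.8 and 67.2% in Themis-/- thymus, 65.7 and 65.7% in Themis+/+ LN and 54.4 and 66.9% in Themis-/- LN. The lowest value rested on 90 sequences, with a 95% Wilson interval from 44.2 to 64.3%. The highest, with 262 sequences, had an interval from 61.3 to 72.6%. In each of the 8 libraries the members exceeded the other V segments, by 42.9 to 57.2 points and by 50.7 ± 4.83 (SD) on average. The mean TRAJ number was 47.22 in members and 28.19 in other V segments, a difference of 19 ± 2.22. Both differences had p = 0.00781 in a two-sided exact sign-flip permutation test over the 8 libraries, the smallest it can give, and an adjusted p of 0.0234 over the 9 features tested.

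**Figure D2:**
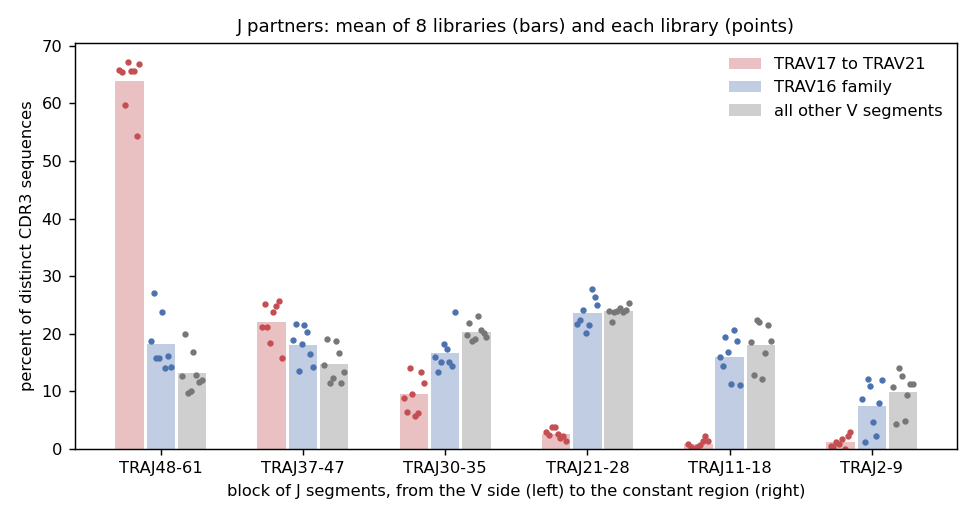
J partners of the 5 segments together, of the TRAV16 family and of all V segments outside the 5 (the TRAV16 family included), as the percent of distinct CDR3 sequences in each of 6 blocks of TRAJ segments. Bars are means of 8 libraries and points are the libraries. TRAJ48 to TRAJ61 hold 54.4 to 67.2% of the member sequences of a library and 9.71 to 19.9% of those of other V segments.

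The TRAV16 family joined TRAJ48 to TRAJ61 in 19.2% of its 4731 sequences, and TRAV1 in 0 of 536. Set against these in place of all other V segments, the members' excess was 45.7 and 63.9 points (adjusted p = 0.0117 and 0.0141, exact permutation tests over 8 libraries). The family's sequences were listed under TRAV16N and TRAV16D-DV11, which stand 803.4 and 1107.2 kb before TRAJ61 on GRCm38, and most of them listed more than 1 V segment. The TRDV segments, which lie on the J side of TRAV21/DV12, joined TRAJ48 to TRAJ61 in 64.4% of 808 sequences. Among TRAV segments with at least 100 sequences, no other passed 46.7%, the value of TRAV6-7-DV9.

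Along the locus, the mean TRAJ number of the 100 V segments with at least 100 sequences had a Spearman correlation of -0.581 and a Pearson correlation of -0.66 with the distance to TRAJ61. This describes segments that share libraries, and many of their reads list several V copies, so their places are uncertain. TRAV19 had the highest mean TRAJ number of all, 48.31, followed by TRAV21/DV12 with 47.95. TRAV17, the farthest of the 3, had 45.75. By the Jensen-Shannon distance between TRAJ profiles, the segments outside the group most like it were TRDV1 (0.2828), TRAV6-7-DV9 (0.2972) and TRAV5-4 (0.3386). The read shares of TRAV14D-2, TRAV3D-3 and TRAV4D-3 followed the combined share of the members most closely over the 8 libraries, with Pearson correlations of log2 shares of 0.902, 0.891 and 0.855, given as a description.

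**Figure D3:**
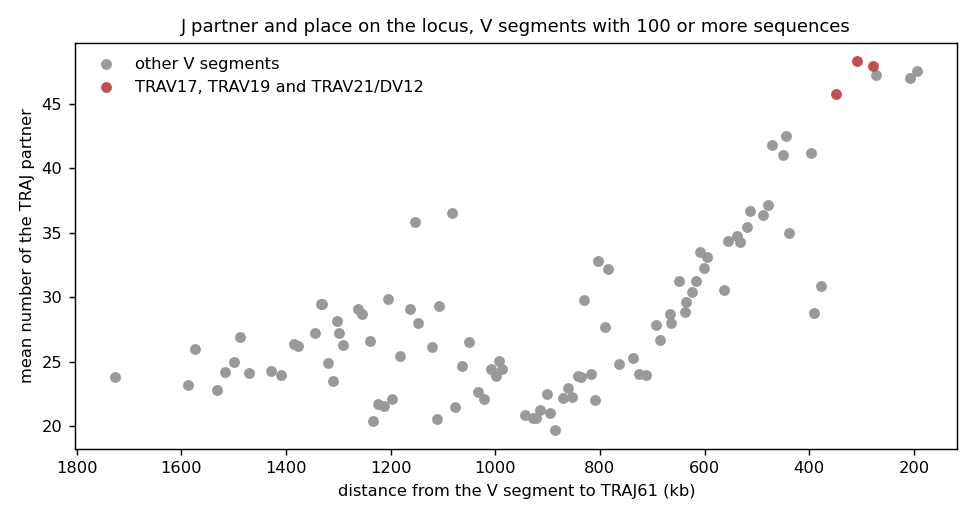
Mean number of the TRAJ partner (vertical axis) against the distance in kb from the end of the V segment to TRAJ61 on GRCm38 (horizontal axis, J cluster to the right), for 100 V segments with at least 100 sequences. TRAV17, TRAV19 and TRAV21/DV12, in red, sit at the top right with the TRDV segments, and most V segments farther away have lower mean TRAJ numbers.

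The leading single J segments were not the same in each member, and no test compared the members. As a mean over libraries TRAJ56 joined 13.0% of member sequences (9.54 to 17.8%), TRAJ49 12.3% and TRAJ57 11.9%. By sequences over all libraries TRAJ49 came first with 305, beside 299 for TRAJ56 and 274 for TRAJ57. In other V segments TRAJ56, TRAJ49 and TRAJ57 took means of 1.39, 3.95 and 1.06%. TRAJ58, the outermost J segment found with a member, took 7.53% against 0.877%. TRAV19 was joined most often to TRAJ56 (15.3%), TRAJ49 (15.1%) and TRAJ57 (11.8%), and TRAV21/DV12 to TRAJ57 (14.9%), TRAJ56 (12.2%) and TRAJ58 (12%). Of the 541 TRAV17 sequences 55 had TRAJ58, 53 had TRAJ50 and 49 had TRAJ57. As a mean over libraries TRAJ57 led in TRAV17 with 10.1%, and its share ranged from 0 to 29.4% between libraries. Of the 15 TRAV18 sequences 11 had a TRAJ48 to TRAJ61 partner, and of the 40 TRAV20 sequences 17 did. One TRAV17 sequence was listed with a TCRδ J segment.

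TRAV19 was the member whose share of TRAJ48 to TRAJ61 partners separated by genotype. In mean TRAJ number its genotypes overlapped, since thymus Themis-/- library 2 had 48.3 and LN Themis+/+ library 2 had 47.7. TRAJ48 to TRAJ61 joined 77.5 and 77.8% of its sequences in Themis+/+ thymus, 53.5 and 70.5% in Themis-/- thymus, 71.9 and 72.3% in Themis+/+ LN and 47.5 and 68.8% in Themis-/- LN. All 4 Themis-/- values lay below all 4 Themis+/+ values, which held for 5 of the 81 V segments with at least 10 sequences in every library (6.17%). The separation was not kept when sequences 1 base apart were merged, where thymus Themis-/- library 2 had 72.4% and LN Themis-/- library 2 had 71.4%, against 65.8 to 72.5% in Themis+/+. It was kept with read weighting, at 29.9 to 65.6% in Themis-/- and 69.2 to 77.2% in Themis+/+. TRAV17 had 48.5 and 57.6%, 67.2 and 57.0%, 51.3 and 64.7%, and 42.9 and 47.1% in the order of the groups above. TRAV21/DV12 had 61.5 and 55.5%, 61.2 and 72.8%, 65.6 and 42.9%, and 72.4 and 77.4%. Both overlapped between genotypes, and in TRAV21/DV12 the 3 highest values were those of both Themis-/- LN libraries and of thymus Themis-/- library 2.

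**Figure D4:**
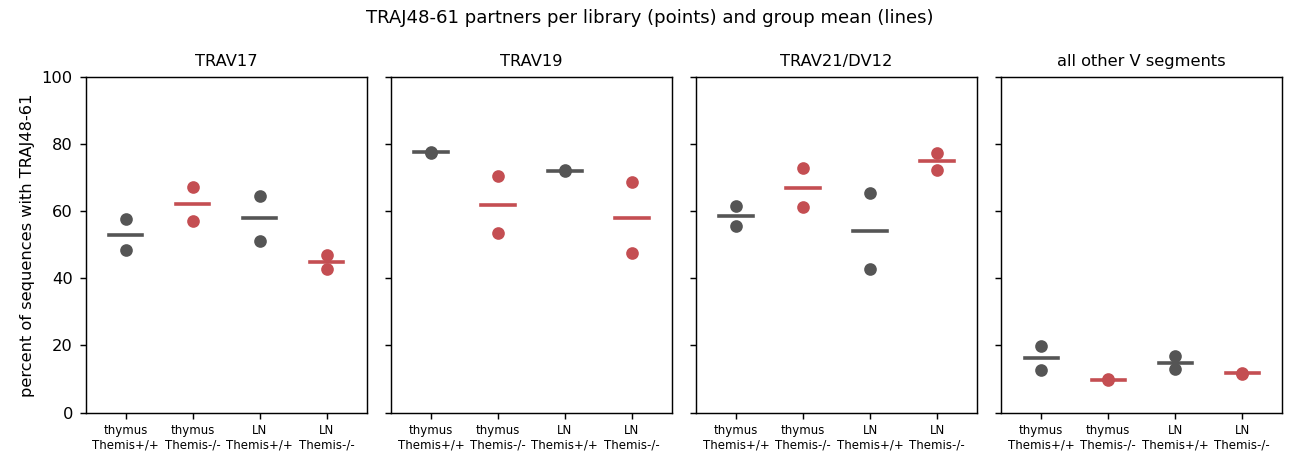
Percent of distinct CDR3 sequences joined to TRAJ48 to TRAJ61 for TRAV17, TRAV19, TRAV21/DV12 and all other V segments. Points are libraries and lines are means of 2 libraries per group, with Themis+/+ in grey and Themis-/- in red. The members lie between 42.9 and 77.8% and the other V segments between 9.71 and 19.9%.

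For the members together the share of TRAJ48 to TRAJ61 partners differed by -3.59 points for Themis-/- minus Themis+/+, with p = 0.5 in the exact permutation test within tissues (adjusted p = 0.692 over 18 tests). The difference in mean TRAJ number was -1.09 (p = 0.111, adjusted p = 0.375, exact permutation). Neither feature differed between LN and thymus beyond the spread of the libraries, with differences of -1.35 points (p = 0.667) and -0.776 (p = 0.222) for LN minus thymus in the same exact tests.

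Member CDR3s were longer than those of other V segments. Their mean length was 42.3 and 42.26 bp in Themis+/+ thymus, 41.94 and 42.03 bp in Themis-/- thymus, 41.7 and 41.81 bp in Themis+/+ LN and 42.07 and 41.63 bp in Themis-/- LN. Other V segments had 40.29 to 40.73 bp, and no library of the one overlapped with a library of the other. The difference of 1.45 ± 0.317 bp (SD) was positive in 8 of 8 libraries, with an adjusted p of 0.0234 by the exact permutation test. The sign depended on the comparison, since members minus the TRAV16 family was -2.35 bp (adjusted p = 0.0117, exact permutation). With the sequences of all libraries pooled and split by alignment, member CDR3s had 12.1 bases of V, 1.89 between the segments and 27.1 of J. The others had 11.6, 2.02 and 26.0. Bases in both alignments were counted in neither part, so that the parts add to less than the length. TRAV21/DV12, with the longest germline end, had the longest CDR3s, at a pooled mean of 43.6 bp against 42.0 bp for TRAV17 and 41.2 bp for TRAV19.

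The junctions and residues differed less. As a mean of the 8 library means, bases between the V and J alignments were 1.836 in members and 2.002 in other V segments. Members were lower in 7 of 8 libraries (difference -0.166 ± 0.167, adjusted p = 0.0563 by exact permutation). Within the group, with libraries pooled, TRAV21/DV12 had 2.38 such bases, TRAV19 had 1.70 and TRAV17 had 1.62. Sequences with none made up 36.6% of member and 33.7% of other sequences, a difference that missed the threshold (adjusted p = 0.167, exact permutation). Mean hydropathy per residue on the Kyte-Doolittle scale was 0.205 in members and 0.177 in other V segments (adjusted p = 0.0804, exact permutation). Mean net charge, the lysines and arginines minus the aspartates and glutamates of a CDR3, was 0.516 in members and 0.421 in other V segments, and higher in 7 of 8 libraries (adjusted p = 0.0527, exact permutation).

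Net charge was the one member feature whose genotypes did not overlap. It was 0.463 and 0.491 in Themis+/+ thymus, 0.622 and 0.695 in Themis-/- thymus, 0.433 and 0.338 in Themis+/+ LN and 0.511 and 0.576 in Themis-/- LN. The difference of 0.170 had p = 0.0556, the smallest the exact permutation test allows, and an adjusted p of 0.333. Single members carried quite different charges, with pooled means of 1.31 in TRAV21/DV12, 0.310 in TRAV19 and -0.107 in TRAV17. None of the 3 separated by genotype alone, while 4 of the 81 V segments did so upward (4.94%). TRAV21/DV12 made up 33.2 and 35.1% of member sequences in Themis-/- thymus and 32.2 and 22.3% in Themis-/- LN, against 27.3% or less in the Themis+/+ libraries. Its part in the difference was not tested. Charge in other V segments was 0.419 and 0.386, 0.494 and 0.510, 0.325 and 0.398, and 0.436 and 0.402 in the order thymus Themis+/+, thymus Themis-/-, LN Themis+/+ and LN Themis-/-.

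The median member sequence had 4 to 6 reads, and so had the median sequence with another V segment. The most abundant member sequence of a library held 0.0861 to 0.150% of the library's reads and 2.23 to 9.33% of its member reads. Mean reads per sequence were 7.73 and 10.6 in Themis+/+ thymus, 11.3 and 9.66 in Themis-/- thymus, 8.89 and 8.31 in Themis+/+ LN and 11.2 and 13.9 in Themis-/- LN. Other V segments had 7.48 to 15.4 reads, with the highest values in Themis-/- LN. The difference of -1.02 ± 1.48 reads missed the threshold (adjusted p = 0.0804, exact permutation). It was called with amino acid sequences (-1.95) and with single V hits (-2.19), both with an adjusted p of 0.0176 in the exact permutation test, and changed sign with sequences 1 base apart merged (1.0). Sequences seen in 1 read made up 18.4% of member and 17.9% of other sequences (adjusted p = 0.664, exact permutation). In TRAV19 the mean reads per sequence were higher in all 4 Themis-/- libraries (9.25 to 13.6) than in all 4 Themis+/+ libraries (7.56 to 8.82), which held for 3 of the 81 V segments (3.7%). The 10 largest member sequences held 47.9 and 40.8% of member reads in Themis-/- LN and 16.3 to 27.6% in the 6 other libraries. The LN Themis-/- libraries also had the fewest member sequences, 90 and 139.

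Few member CDR3s recurred. Of 2236 different nucleotide sequences 2118 were found in 1 library, 96 in 2, 13 in 3, 8 in 4 and 1 in 5, so that 118 (5.28%) were in more than 1 library. For other V segments that share was 8.45% of 67974. The sets were not matched in size or tested against each other, and sequences 1 base apart were not merged. TRAV19 had 68 of the shared sequences, TRAV21/DV12 27, TRAV17 22 and TRAV18 1. Shared member sequences had 0.627 bases between V and J on average against 2.06 in the others, and 66.1% against 31.8% had none. TRAJ48 to TRAJ61 was the partner in 84.7% of the shared sequences and in 62.3% of the rest. The TRAV19-TRAJ56 CDR3 printed above also counts as having none, since its V and J alignments overlap, although its V part departs from the germline end by a mismatch. The pair with the most sequences in common was thymus Themis+/+ library 1 and LN Themis+/+ library 1, with 23, which is 4.82% of the first and 4.22% of the second. Thymus Themis-/- library 2 had 0 in common with either LN Themis-/- library.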

How the data were processed

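TCRα libraries were made by 5' RACE from sorted CD8 T cells and SP CD8 thymocytes, sequenced on a MiSeq and processed by the authors with MiXCR (version not stated in the labels or methods read). Each deposited table lists CDR3 nucleotide sequences with their raw read count, not normalized, and the fraction that they take of the library's reads, which equals the count over the library total. The submitters' processing notes list CASAVA 1.4 and mm9, with no role given. No molecular identifiers are described, so the intervals, and the limits set at 3 counts, hold for counting error alone. The 8 libraries of all CD8 T cells held 57455 to 146191 reads and 4357 to 16670 sequences. The 8 libraries of sorted Vα3.2+ cells were not used in the comparisons.

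The members and lists were chosen with earlier results of these data known. The first listed V and J hits gave the segments, and overlapping V and J alignments counted as 0 bases between them. The read totals of the V segments went into edgeR 4.0.16 (quasi-likelihood, TMM, at least 10 reads in at least 2 of the 8 libraries, all groups in 1 fit, Benjamini-Hochberg adjusted p under 0.05) in R 4.3.3, with DESeq2 1.42.0 as an alternative. Member features, as means over the distinct sequences of a library, were compared with exact permutation tests over libraries, two-sided: sign flips of 8 within-library differences, or labels permuted within tissue or genotype. Scripts ran in Python 3.11.15 and were tested on simulated data. Positions and V ends came from GENCODE M21 (GRCm38). Named were all member segments, TRAV16 and TRAV1 for comparison, 6 blocks of TRAJ, the leading 3 TRAJ, the 3 segments most alike by TRAJ profile and by read share, and 2 CDR3s per member; TRAJ58, the TRDV segments and the features of single members were added after their values were seen. Alternatives included distinct sequences, read weighting, thinning to 1007 member reads, a replicate block and leaving out each library. Merging sequences 1 mismatch from a larger one of the same library, V, J and length was added after seeing the data: 40.2% of member and 29.6% of other sequences had such a neighbour. Leaving out 2 Themis+/+ libraries together and crossing the replicate numbers were also added then.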

Additional observations from a re-analysis of the deposited data

Results flagged for a closer look

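The libraries of sorted Vα3.2+ cells, which the comparisons did not use, held a few member reads. TRAV21/DV12 had 34 reads in 1 sequence joined to TRAJ57 in the sorted Themis+/+ thymus library 2, which is 0.187% of its 18191 reads and above the 3 counts that a count of 0 allows. That sequence was found in 0 of the 8 libraries of all CD8 T cells. TRAV17 had 2 reads in the sorted Themis+/+ LN library 2 and 1 read in the sorted Themis-/- LN library 2, both within that limit. No test was run on these reads.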

How the results depend on the processing

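The excess of TRAJ48 to TRAJ61 partners and of the mean TRAJ number kept its direction and its call under all 15 alternatives run for each, with ranges of 45.7 to 63.9 points and 16.7 to 21.8. The combined share was lower in Themis-/- under all 13 alternatives, by -2.02 to -1.01 points. For member features by tissue or genotype the exact permutation test cannot reach 0.05, so the alternatives bear only on direction. The causes of the changes below were not tested.

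The numbers of the libraries showed no clear pairing (correlations of same-numbered deviations from -0.198 to 0.014), which cannot exclude a shared mouse, pool or run. By the paper, the data of each genotype came from 2 experiments, and the sample titles do not assign libraries to them. With the replicate number as a block edgeR called 1 segment in place of 3 for tissue in Themis-/-. The block moved no other count. Crossing the numbers gave 1 call for genotype in LN. That count was 7 with DESeq2, 9 with distinct sequences, 9 with neighbours merged and 1 with the 4 libraries alone, and 1 to 9 when libraries were left out. In the thymus it was 3 with distinct sequences and 5 with neighbours merged. Tissue in Themis-/- gave 5 with distinct sequences, 0 with the 4 libraries alone and 0 to 9 with libraries left out. The difference between genotype effects gave 0 with neighbours merged and 0 to 4 with libraries left out. The highest count of each range came without LN Themis-/- library 2, and the lowest without LN Themis-/- library 1. Leaving out either thymus Themis+/+ library also lowered all 3 counts, LN Themis+/+ library 2 those for genotype in LN and for the difference between genotype effects, either thymus Themis-/- library that for tissue in Themis-/-, and LN Themis+/+ library 1 and thymus Themis-/- library 2 that for the difference between genotype effects. With neighbours merged TRAV17 was called lower in Themis-/- LN (log2 fold change -1.17, adjusted p = 0.0435, edgeR).

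Against all other V segments, read weighting gave 0.0702 bases between V and J, -1.81 points of sequences with none and a charge difference of 0.230. Against TRAV1 these differences were 0.0165, -4.17 and -0.510, and against the TRAV16 family 0.297, -2.94 and -0.132, with lengths of -2.35 bp there. Of these, -0.510 against TRAV1 and 0.297, -0.132 and -2.35 against TRAV16 passed the threshold. Charge also passed the threshold with read weighting, without single reads (0.104), with single V hits (0.0911) and with neighbours merged (0.0975). Hydropathy passed against TRAV1 (0.198), against TRAV16 (0.472) and with single V hits (0.0436). Reads per sequence differed by 1.0 with neighbours merged, 0.663 against TRAV1, 0.418 against TRAV16, -1.95 with amino acid sequences and -2.19 with single V hits, of which the last 2 passed the threshold. Single-read sequences differed by -1.08, -4.80, -0.0788 and, with amino acid sequences, -0.245 points, of which -4.80 passed. With libraries left out the ranges were -0.207 to -0.127 bases, 1.97 to 4.46 points, 0.0211 to 0.0337 for hydropathy and 0.0821 to 0.117 for charge; the first 3 passed the threshold without LN Themis-/- library 2 (-0.207, 4.46 and 0.0337) and charge without LN Themis+/+ library 2 (0.117).

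For LN minus thymus the combined share differed by 0.290 with distinct sequences, 0.283 with neighbours merged, 0.00406 without both Themis+/+ libraries named above and -0.591 to 0.211 with libraries left out. Sign changes among uncalled features were length by genotype without single reads (0.0107; left out -0.208 to 0.00882), TRAJ48 to TRAJ61 by genotype with neighbours merged (0.566) and by tissue (-4.47 to 1.76), single reads by tissue when thinned (-5.43; -0.801 to 3.33), and sequences with no base between by genotype with read weighting (-0.910; -2.36 to 5.12) and by tissue when thinned (-0.210) and without single reads (-0.391; -3.31 to 4.17). For TRAV21/DV12 merging gave tissue log2 fold changes of 0.094 in Themis-/- and 0.006 in Themis+/+. Leaving libraries out gave -1.155 to 0.702 for TRAV17 by tissue in Themis+/+, -1.396 to 0.16 by genotype in thymus, and -0.148 to 0.843 for TRAV19 by tissue in Themis-/-.

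Depth limits TRAV18 and TRAV20, whose genotype log2 fold changes within a tissue had SEs of 1.48 to 2.15 in edgeR, and 2 libraries per group limit every other.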
